A study of Rattus norvegicus with 252 samples.

Results

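Gene expression in the cerebellum was compared between heterozygous Q130 knock-in rats and wild-type (WT) rats at 2 months of age. The 20 libraries were chosen by their labels for tissue, age and genotype, and they are 20 of the 240 study libraries of the series. Both genotypes are Long Evans rats, and each group of 10 holds 5 females and 5 males. The Q130 animals carry 1 normal allele and 1 knock-in allele whose run of glutamine codons is lengthened, as a model of Huntington disease. The WT animals carry no knock-in allele. No treatment is named for either group. The animals are separate individuals, each of which also gave striatum, cortex and hippocampus, and all 20 libraries belong to the first of the study's 2 batches. The study also collected the same tissues at 6 and 12 months.

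The cerebellum coordinates movement and motor learning. Its cortex is built from very many small granule neurons and a single layer of large Purkinje neurons, whose axons are the only output of the cerebellar cortex, together with interneurons and glia. Huntington disease is caused by a lengthened CAG repeat in the huntingtin gene. It is known above all for the loss of medium spiny neurons in the striatum, while the cerebellum has usually been described as less affected. A knock-in model keeps the altered gene under its own promoter, so the protein is made wherever huntingtin is normally made, the cerebellum included. Bulk RNA was sequenced, so a lower value can come from fewer cells of a type or from less RNA per cell, and these cannot be told apart.

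The files list genes by Ensembl rat identifier with no names, and none of the 32883 identifiers matched the reference table used here. Genes are therefore described as groups defined in other libraries, and 4 genes are given by identifier. It was not determined if any of the 4 is the targeted gene. Lists of Purkinje, granule, glial and other marker genes are written as symbols and could not be matched. The tissue label was checked instead through whole-library correlations and through genes enriched in a tissue in the WT libraries of 6 months, meaning a mean that exceeds that of any other tissue by 2 log2 units or more. The 290 cerebellum-enriched genes summed to between 33240 and 36780 CPM (counts scaled to a common library total) in the WT libraries and between 30870 and 36560 CPM in the Q130 libraries. Of 104 striatum-enriched genes, the 60 tested in the cerebellum summed to 751.2 CPM or less in every 2-month cerebellar library. Of 52 cortex-enriched genes, the 29 tested summed to 137.3 CPM or less. No sums from striatal or cortical libraries are set beside these, so they are a weak check. Sex was checked on 8 genes that differed more than 32-fold between the sexes, and 20 of 20 libraries matched their label. These genes were picked through the study's own sex labels and not from an outside list, so the match is a weak check.

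Total counts ran from 31.86 to 39.38 M per library, with similar ranges in WT (33.4 to 38.25 M) and Q130 libraries, and 17807 to 18378 genes were detected. At this depth counting error matters least for abundant genes and more for those with few counts. Over all 20 libraries the median standard error of the log2 fold change between genotypes was 0.068 over 100 CPM. It was 0.133 at 1 to 10 CPM and 0.233 under 1 CPM. In 18 libraries the median Pearson correlation of log2 CPM with the 59 other cerebellar libraries lay between 0.983 and 0.986. It was 0.947 in Q130 male 1 and 0.937 in Q130 male 2. These 2 libraries fell under the limit of 0.97, so the comparisons of genotypes are given over all 20 libraries and over the 18 that remain, 10 WT and 8 Q130. No WT library fell under the limit, so leaving libraries out changed the Q130 males only, from 5 to 3.

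**Figure D1:**
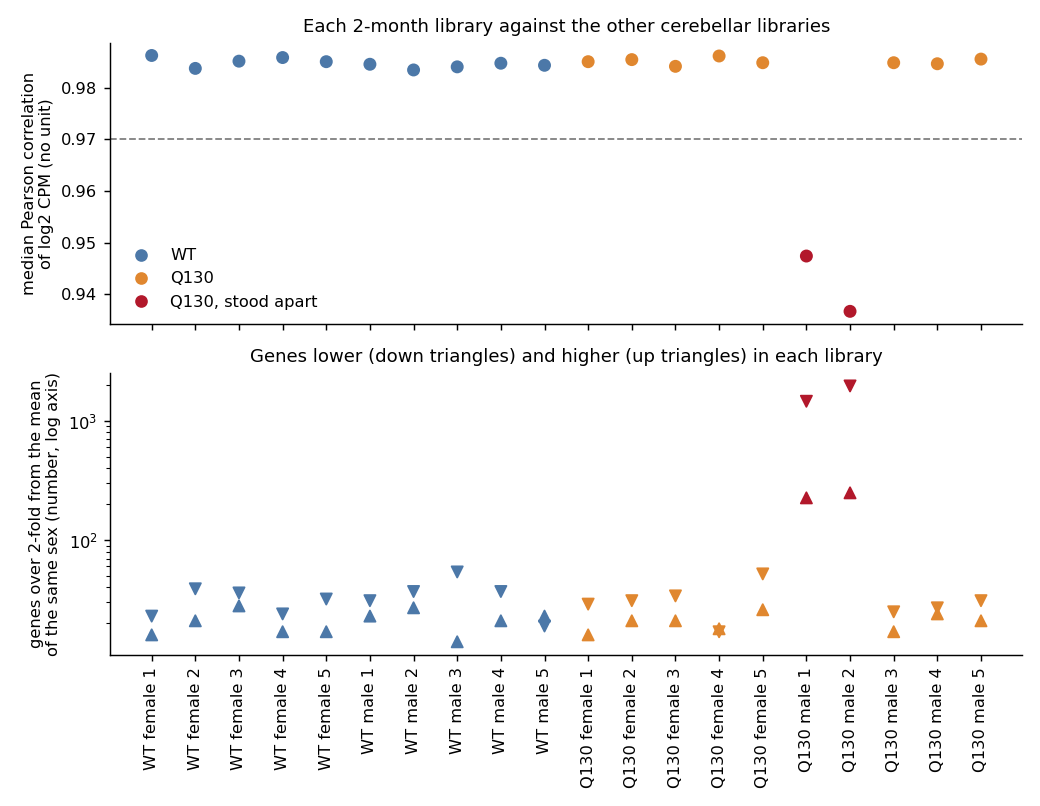
The upper panel plots, for each 2-month cerebellar library, the median Pearson correlation of its log2 CPM with the 59 other cerebellar libraries, with a dashed line at 0.97. The lower panel plots, on a log axis, how many genes lay over 2-fold from the mean of the other libraries of the same sex. Down triangles count genes below that mean and up triangles genes above it. Q130 males 1 and 2 were left out of these means and stand away from the other 18 libraries in both panels.

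The 2 libraries that stood apart were still cerebellar by their overall profile. Q130 male 1 correlated at 0.954 with cerebellar libraries against at most 0.866 with another tissue, and Q130 male 2 at 0.945 against at most 0.856. The cortex, hippocampus and striatum libraries of the same 2 animals lay between 0.980 and 0.985 within their own tissues. No cortical, hippocampal or striatal library of 2 months fell under 0.97, the lowest being 0.976, 0.971 and 0.980. By this measure only the cerebellar libraries of these 2 animals deviated.

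Most of the genes that deviated in this pair were lower. Of 13821 genes at 1 CPM or more, 1462 were over 2-fold lower in Q130 male 1 than the mean of the other males, and 1966 in Q130 male 2. The other 18 libraries had between 17 and 54 such genes. Q130 males 1 and 2 were left out of the means that every library was compared with. Genes over 2-fold higher numbered 226 in Q130 male 1 and 249 in Q130 male 2, against 14 to 28 in the others. The 2 libraries shared much of the pattern: 978 genes were over 2-fold lower in both, 46 were higher in both and 15 moved in opposite directions. Across these genes, which are not independent replicates, the deviations of the 2 libraries correlated at 0.64. The 10 most counted genes took 14.7% of all counts in Q130 male 1 and 11.2% in Q130 male 2, against 7.90 to 9.56% in the other libraries.

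Some well-measured genes were all but missing from both libraries. Among 11949 genes with at least 100 counts in every other male, 5 were rounded to 0 in both Q130 males 1 and 2, where their largest estimated count was 0.0373. The same 5 genes had between 128 and 2261 counts in the 8 other males. The summed level of the cerebellum-enriched genes was 30870 and 32440 CPM in the 2 libraries, below the lowest of the 18 others (33240 CPM). The striatum-enriched sum, 556.6 and 751.2 CPM, was the lowest and the highest of the 20.

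The pair also differed from the rest by gene length. Effective length was taken as the ratio of the deposited count to the deposited TPM value, a level scaled for gene length, and genes were put in 5 classes of 3068 or 3069 genes. Each library was compared with the mean of the others of its sex and age, from which Q130 males 1 and 2 were left out. The median gene of the shortest class was 0.31 log2 units above the other males in Q130 male 1, and that of the longest class was -0.21. In Q130 male 2 the same medians were 0.53 and -0.50. The shortest class minus the longest was thus 0.52 and 1.03 in these libraries, against -0.14 to 0.17 in the other 18. Over the other 58 cerebellar libraries of all ages it ran from -0.18 to 0.31. Low correlation and an excess of short over long genes therefore came together in the same 2 libraries, both Q130 males. Which step gave rise to either was not tested.

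**Figure D2:**
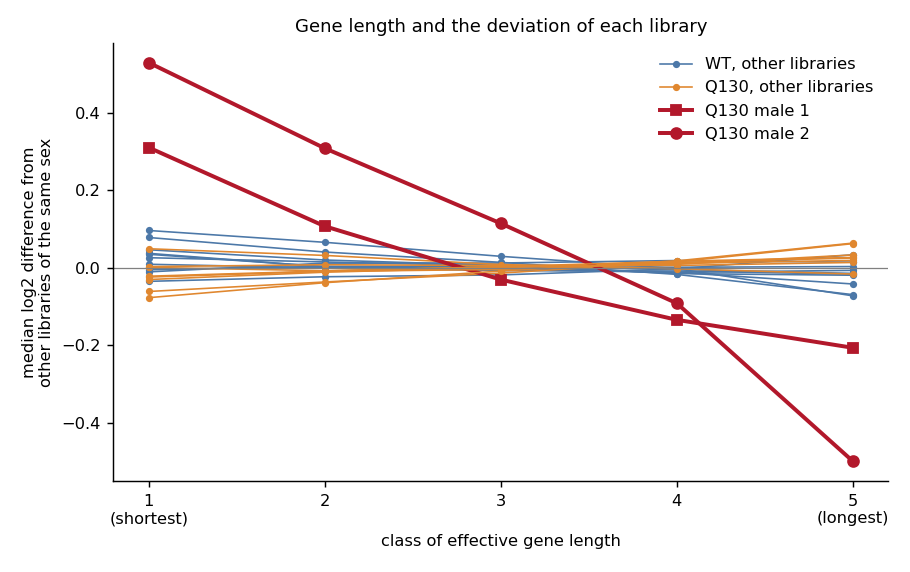
Each line is 1 of the 20 libraries, and each point is the median log2 difference of the genes of a length class from the other libraries of the same sex, with class 1 the shortest and class 5 the longest. The libraries compared against leave out Q130 males 1 and 2. Q130 males 1 and 2 slope from 0.31 and 0.53 down to -0.21 and -0.50, while the other libraries stay close to 0.

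The main question was which cerebellar genes distinguish Q130 from WT rats at 2 months. Over all 20 libraries no gene was called, 0 of 15349 tested (percent called 0%; edgeR's quasi-likelihood test with sex as a covariate, Benjamini-Hochberg adjusted p under 0.05). At an unadjusted p under 0.05 there were 244 genes, 141 higher and 103 lower in Q130, which is 1.59% of those tested. Without the 2 libraries that stood apart, 2 of 15435 genes were called (0.013%), 1 higher (0.00648%) and 1 lower (0.00648%), and 1324 genes (8.58%) had an unadjusted p under 0.05, 737 higher and 587 lower. DESeq2 called 0 genes over all libraries and 3 without the 2 libraries. At the level of transcripts, 0 of 19441 were called over all libraries (0%), with 328 at an unadjusted p under 0.05, and 1 of 19652 without the 2 libraries (0.00509%), with 1450. Leaving out Q130 male 2 alone gave 1 called gene and 541 at an unadjusted p under 0.05. Leaving out Q130 male 1 alone gave 0 called and 199, fewer than the 244 with all libraries. Leaving out Q130 male 3, which did not stand apart, gave 0 called and 375.

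The same test on the same tissue called more genes at later ages. It called 44 of 15305 genes at 6 months (0.287%) and 238 of 15177 at 12 months (1.57%). In the other tissues of the 2-month animals it called 1 of 15504 genes in the cortex (0.00645%), 0 of 15466 in the hippocampus (0%, with 949 at an unadjusted p under 0.05) and 393 of 15500 in the striatum (2.54%). The 12-month libraries belong to the second batch, so age and batch cannot be told apart for that count. Within the 2-month cerebellum the sexes gave 17 called genes over all libraries (0.111%) and 24 without the 2 libraries (0.155%), most of the latter higher in males (15 of 24).

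The low count at 2 months went with narrow intervals for most genes. Over all libraries, the 95% interval of the Q130 to WT ratio lay wholly inside 1.5-fold for 12883 of 13917 genes at 1 CPM or more (92.6%). This held, once the pair was left out, for 13527 of 13899 (97.3%). It was 96.1% at 6 months and 95.5% at 12 months. Smaller changes than 1.5-fold were also called at those ages, so this share does not show if such changes could be seen at 2 months. The median standard error of the log2 fold change was 0.088 over all libraries and 0.054 without the 2. It was 0.057 at 6 months and 0.054 at 12 months. The 2 libraries were left out because they deviated, which in itself narrows the spread. The part of precision in the counts of called genes was not tested. The median biological coefficient of variation was 13.9% over all libraries and 7.81% without the 2. Estimates beyond 1.5-fold were found for 41 genes over all libraries and 37 without the 2.

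The 2 libraries also turned the direction of many estimates. Of 15349 genes tested in both fits, 8227 (53.6%) kept the sign of their log2 fold change. Of 1319 genes with an unadjusted p under 0.05 without the 2 libraries, 104 also had one over all libraries, and 649 had the same sign there. Log2 fold changes moved by more than 0.2 in 1582 genes.

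By abundance, genes with an unadjusted p under 0.05 lay in different places in the 2 fits. Over all libraries they were 3.05% of genes at 1 to 10 CPM and 0.178% of genes over 100 CPM. Leaving out the pair, they were 6.13% at 1 to 10 CPM and 12.7% over 100 CPM, where 175 were higher and 113 lower. Abundant genes, whose standard errors are smallest (median 0.039), thus held the larger share once the pair was left out, although their absolute log2 fold changes had a median of only 0.036.

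ENSRNOG00000011073 was the gene with the clearest difference. In WT libraries it ran from 215.2 through a median of 233 to 267.9 CPM, and in Q130 libraries from 81.46 through 184.4 to 203.1 CPM. Every Q130 library lay below every WT library, which in that direction was true of 1 of 15349 genes (0.00652%) with all libraries and also without the 2. Every Q130 library lay above every WT library in 0 of 15349 genes with all libraries (0%) and in 2 without the 2 libraries (0.013%). Q130 male 2 had the 81.46 CPM, and Q130 male 1, at 176.4 CPM, lay just under the lowest of the other 8 Q130 libraries (179.4 CPM). The means were 236.8 ± 17.3 CPM (SD, n = 10) in WT and 189.2 ± 8.56 CPM (SD, n = 8) in Q130 without the 2 libraries. There the gene fell by 0.33 ± 0.04 (SE) on the log2 scale, to 0.80 of the WT level (edgeR adjusted p = 0.000447). Over all 20 libraries the estimate was larger, -0.42 ± 0.11 (SE), but with the wider spread it was not called (edgeR adjusted p = 0.973). Leaving out Q130 male 2 alone gave -0.34 and an edgeR adjusted p of 0.00208, and over the alternatives to the 20-library fit the adjusted p ran from 1.78e-06 to 0.9997. Without the 2 libraries, the call was lost with the first part of the animal identifier as a block (edgeR adjusted p = 0.0509), in 1 fit over all cerebellar libraries (edgeR adjusted p = 0.0658) and in limma on log2 TPM values (adjusted p = 0.0828). Over all alternatives there it ran from 1.24e-10 to 0.202, the highest with males only.

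The same identifier had a lower estimate in the cerebellum of both older ages and in the 3 other tissues of 2 months, and it was called in all of these but the hippocampus. In the cerebellum it was 260.3 ± 26.7 CPM in WT and 184.7 ± 11.6 CPM in Q130 at 6 months (SD, n = 10 each), which is -0.49 ± 0.06 (SE) as a log2 fold change (adjusted p in edgeR = 7.13e-05). At 12 months it was 243 ± 27.7 CPM in WT and 172.4 ± 19.99 CPM in Q130 (SD, n = 10 each), which is -0.50 ± 0.07 (SE) as a log2 fold change (adjusted p in edgeR = 0.00485). At 2 months its log2 fold change was -0.40 in the cortex (edgeR adjusted p = 0.00109), -0.36 in the hippocampus (edgeR adjusted p = 0.0760, not called) and -0.43 in the striatum (edgeR adjusted p = 4.57e-08). These tissues come from the same animals. Subtracting the 2-month effect from the 6-month effect gave -0.17, with a 95% interval from -0.31 to -0.02, without the 2 libraries (edgeR adjusted p = 0.221). The effect in the cerebellum minus the mean of the other tissues was 0.09, with an interval from -0.04 to 0.21 (edgeR adjusted p = 0.563). Neither difference was called, and a missed threshold does not show equal effects.

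ENSRNOG00000001141 was the called gene that was higher. It ran from 9.781 through 11.88 to 14.59 CPM in WT libraries and from 13.6 through 16.17 to 17.29 CPM in the 8 Q130 libraries, of which 6 lay above the highest WT library. The 2 libraries that stood apart had 4.566 and 2.324 CPM, below every WT library. Without them the gene rose from 11.9 ± 1.41 CPM (SD, n = 10) to 15.8 ± 1.33 CPM (SD, n = 8), which is 0.40 ± 0.07 (SE) as a log2 fold change (adjusted p in edgeR = 0.0403). With them the estimate was 0.14 ± 0.24 (SE, edgeR adjusted p = 0.973), and in males alone it was -0.10. The call also rested on single libraries. It was lost when any 1 of 13 libraries was left out (WT females 1, 2, 3 and 5, WT males 2, 3 and 5, Q130 females 1, 2, 3 and 5, and Q130 males 3 and 5), with a highest edgeR adjusted p of 0.241 without Q130 male 5 and a range of 0.000234 to 0.788 over all alternatives.

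ENSRNOG00000001141 had a lower estimate in the other ages and tissues, called in none of them. At 6 months it was 14.0 ± 2.76 CPM in WT and 11.2 ± 1.85 CPM in Q130 (SD, n = 10 each), and its log2 fold change was -0.32 (edgeR adjusted p = 0.236). At 12 months the log2 fold change was -0.17, and in cortex, hippocampus and striatum of 2 months it was -0.06, -0.20 and -0.04. Subtracting the 2-month effect from the 6-month effect, without the 2 libraries, gave -0.71 ± 0.14 (SE), which was not called over all genes (edgeR adjusted p = 0.0927). The difference from the mean of the other tissues was 0.52 ± 0.12 (SE, edgeR adjusted p = 0.281). Estimates of opposite sign at 2 and 6 months were therefore present, and neither difference passed the test.

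A pair of weaker identifiers completes the named set. ENSRNOG00000025198, a low-level gene, ran from 0.984 through 1.57 to 2.06 CPM in WT libraries and from 0.648 through 1.03 to 1.34 CPM in the 10 Q130 libraries. All 10 lay below the WT median and 5 below the lowest WT library, and Q130 males 1 and 2 (1.28 and 1.09 CPM) were near the other Q130 males. It had the smallest unadjusted p of the 20-library comparison, which gave -0.67 ± 0.14 (SE) as a log2 fold change (adjusted p in edgeR = 0.973), and -0.69 ± 0.16 (SE, edgeR adjusted p = 0.379) without the 2 libraries. It was not called in any alternative, with adjusted p from 0.0659 to 0.9997. Its counts were 23 to 76 per library, and the females differed more by their means (1.49 to 0.787 CPM) than the males (1.67 to 1.23 CPM). The sex difference of the effect was 0.48 ± 0.27 (SE, edgeR adjusted p = 0.636). Its log2 fold changes at 6 and 12 months were 0.40 and 0.23, also not called.

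ENSRNOG00000059938 had the largest higher estimate among the 10 identifiers at 1 CPM or more with the smallest p in that direction. It ran from 3.739 through 5.969 to 7.566 CPM in WT libraries and from 6.344 through 8.278 to 9.5 CPM in the 8 Q130 libraries, with 3.647 and 3.079 CPM in Q130 males 1 and 2. Its log2 fold change was 0.50 ± 0.11 (SE, edgeR adjusted p = 0.379) without the 2 libraries and 0.29 ± 0.18 (SE, edgeR adjusted p = 0.973) with them. DESeq2 (adjusted p = 0.0360) and a replicate block in edgeR (adjusted p = 0.0197) called it in the 18-library comparison, where adjusted p ran from 0.0197 to 0.993 over the alternatives. Replicate numbers do not pair the animals, so the call with that block adds no support. Both identifiers that were higher were thus at their lowest in the pair that stood apart.

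**Figure D3:**
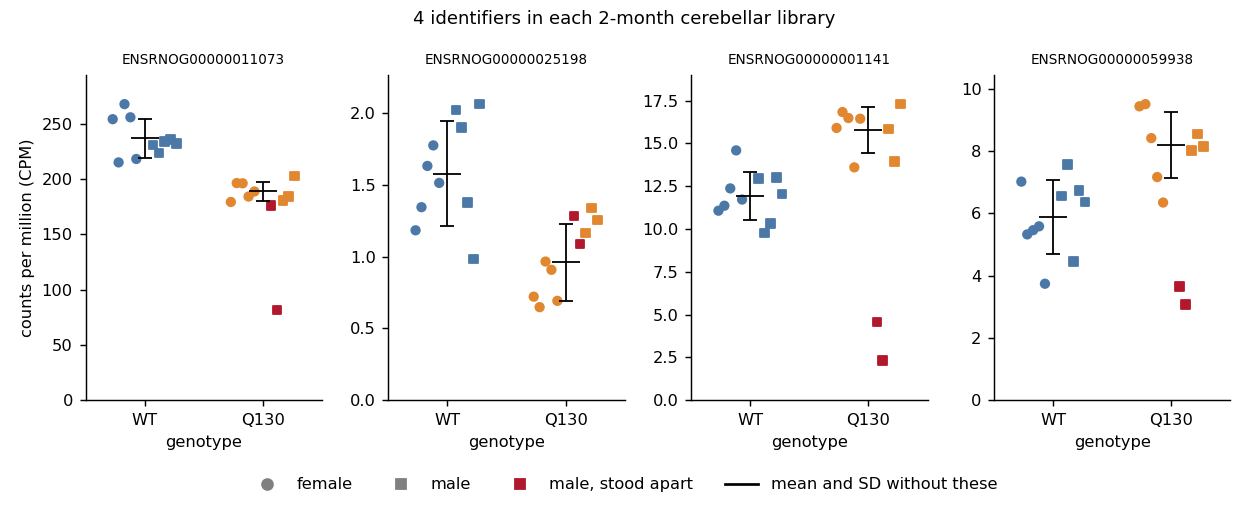
Points are the CPM of 4 identifiers in each 2-month cerebellar library, circles for females and squares for males, with the mean and SD drawn without the 2 libraries that stood apart (red squares). Every Q130 point of ENSRNOG00000011073 lies below every WT point, and for ENSRNOG00000001141 and ENSRNOG00000059938 the red squares lie below the other Q130 libraries.

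The 10 identifiers of smallest p in each direction, at 1 CPM or more and without the 2 libraries, were followed to the older animals. The 10 higher ones had a median log2 fold change of 0.20, and the 10 lower ones of -0.20. Of the 10 higher, 1 was higher at 6 months and 1 at 12 months. Of the 10 lower, 2 were lower at 6 months and 3 at 12 months. Among all 13890 genes at 1 CPM or more, the same sign was kept by 38.4% at 6 months and 34.0% at 12 months. For genes higher at an unadjusted p under 0.05 the shares were 25.9 and 11.1%, and for lower ones 18.04 and 17.5%. The few kept signs are therefore not particular to these identifiers. Over all 20 libraries of 2 months, 6 of the 10 higher identifiers and 8 of the 10 lower had the same sign, although that fit shares 18 libraries with the one that chose them.

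Genes called in the older cerebellum were then read at 2 months. Of 130 tested genes called higher at 12 months, 34 had a higher estimate at 2 months without the 2 libraries and 96 a lower one, with a median log2 fold change of -0.04. None of them was called, where 0.013% of all genes were, and 9 had an unadjusted p under 0.05, all lower, against 8.58% of all genes. Of 107 genes called lower at 12 months, 75 had a higher estimate at 2 months, with a median of 0.04, and 20 had an unadjusted p under 0.05, 15 higher and 5 lower. One gene of these 107 was called, ENSRNOG00000011073, which was lower. Of 37 genes called lower at 6 months, 22 had a higher estimate and 15 a lower one. Over all genes tested 48.8% had a higher estimate, with a median of -0.0024. The 12-month groups were thus mostly on the opposite side of 0 at 2 months.

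With all 20 libraries these groups read differently. Of 129 tested genes called higher at 12 months, 88 had a higher estimate at 2 months (median 0.04), and of 107 called lower, 47 had a higher one and 60 a lower one (median -0.012). Of 37 called lower at 6 months, 30 had a higher estimate (median 0.07). The 2 libraries thus turned the direction of both groups called at 12 months, whose direction at 2 months rests on whether they are kept.

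**Figure D4:**
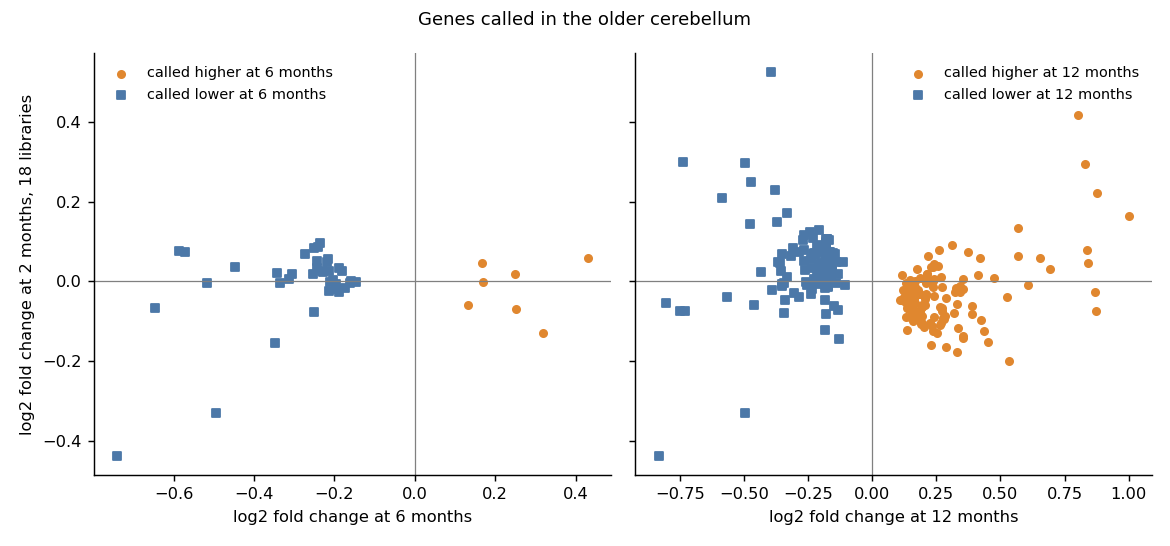
Each point is a gene called at 6 months (left) or 12 months (right) in the cerebellum, with its log2 fold change of Q130 over WT at that age on the horizontal axis and at 2 months, over 18 libraries, on the vertical axis. Of the 130 genes called higher at 12 months 96 lie below 0 at 2 months, and of the 107 called lower 75 lie above it.

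The opposite direction was not limited to called genes. Among 13890 genes at 1 CPM or more, 38.4% had the same sign at 2 and 6 months and 34.0% at 2 and 12 months, without the 2 libraries. The log2 fold changes correlated across genes at -0.19 and -0.30, where genes are not independent replicates. The ages share no library. Of 694 genes higher at an unadjusted p under 0.05 at 2 months, 25.9% were higher at 6 months and 11.1% at 12 months. Of 560 lower ones, 18.04% were lower at 6 months and 17.5% at 12 months. With all 20 the shares with the same sign were 46.1 and 57.4% of 13909 genes. In the test of the difference itself, 6 minus 2 months, 0 of 15724 genes passed (0%; 1460 had an unadjusted p under 0.05), and 0 of 15796 without the 2 libraries (0%), with 2689. So no single gene was shown to differ in its genotype effect between these ages.

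Gene length moved with these directions. Without the 2 libraries, 30.7% of the shortest class had a higher estimate in Q130 at 2 months and 74.3% of the longest, with median log2 fold changes of -0.05 and 0.04. With all 20 libraries the order was turned, with 66.7% of the shortest class higher and 34.9% of the longest. At 6 months 60.5% of the shortest and 41.7% of the longest were higher, and at 12 months 66.9 and 27.1%. The shortest minus the longest class per library was -0.05 ± 0.06 (SD, n = 8) in Q130 and 0.05 ± 0.07 (SD, n = 10) in WT, and the ranges overlapped (-0.14 to 0.07 and -0.07 to 0.17). The 2 libraries left out, both Q130, have the highest values of this measure, and with all 20 the Q130 mean was 0.12 ± 0.37 (SD, n = 10). The difference was seen in these data and is given as a description.

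The length trend of each library was also removed by an offset, a choice made after seeing the data, without the 2 libraries. Then 40.5% of 13890 genes had the same sign at 2 and 6 months, in place of 38.4%. At 2 and 12 months it was 38.4%, in place of 34.0%. The correlations across genes were -0.16 and -0.24, in place of -0.19 and -0.30. Of 812 genes at 1 CPM or more with an unadjusted p under 0.05 at 2 months, 29.2% had the same sign at 6 months and 22.8% at 12 months. The part of gene length in these directions was not tested further. Genes with an unadjusted p under 0.05 at 2 months numbered 883 in place of 1324. The count of called genes stayed at 2 at 2 months, was 103 in place of 44 at 6 months and 155 in place of 238 at 12 months. The medians of the shortest and longest classes at 2 months were then 0.0017 and -0.00099. Values near 0 are set by the offset itself, which uses the same length measure as the classes. ENSRNOG00000011073, in the longest class, was called over all 20 libraries when the same offset was used there (-0.40, edgeR adjusted p = 1.78e-06).

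**Figure D5:**
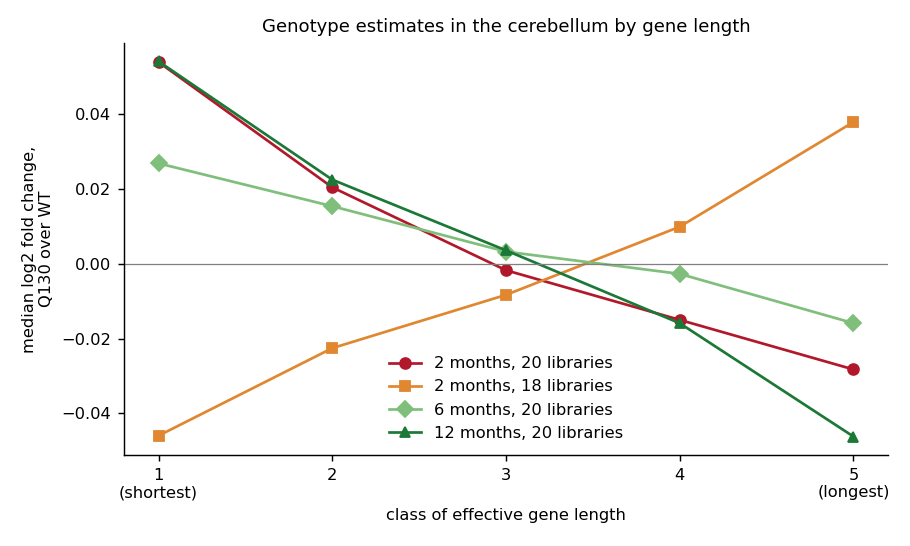
Each line gives the median log2 fold change of Q130 over WT in the cerebellum for 5 classes of effective gene length, from 1 (shortest) to 5 (longest), in 1 comparison. The line of 2 months over 18 libraries climbs from -0.05 to 0.04, while those of 2 months over 20 libraries, 6 months and 12 months descend.

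Genes enriched in 1 brain region were split between higher and lower estimates. Of the 290 cerebellum-enriched genes, all tested and none called, 157 had a higher estimate and 133 a lower one without the 2 libraries, with a median log2 fold change of 0.011. An unadjusted p under 0.05 was found for 27 of them, 18 higher and 9 lower, against 8.58% of all genes. Over all libraries 119 were higher and 171 lower, with a median of -0.03. In the 8 Q130 libraries their sum ran from 34050 through 35710 to 36560 CPM, within or close to the WT range of 33240 through 34960 to 36780 CPM. Of the 60 striatum-enriched genes tested in the cerebellum, 33 were higher and 27 lower, and of the 29 cortex-enriched ones 15 and 14. Of 29 hippocampus-enriched genes 11 were higher and 18 lower. With all 20 libraries the higher and lower estimates numbered 35 and 25 for the striatum-enriched, 12 and 17 for the cortex-enriched and 15 and 14 for the hippocampus-enriched genes. None of these genes was called, and with 0.013 and 0% of all genes called in the 2 fits that count says nothing particular to the groups.

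Genes called in the striatum of the same animals were split near evenly in the cerebellum over 18 libraries, but less so over all 20. Of 173 tested genes called higher in the striatum at 2 months, 94 had a higher estimate in the cerebellum without the 2 libraries, with a median log2 fold change of 0.0047. Of 210 called lower there, 106 had a lower estimate in the cerebellum, with a median of -0.0034. Among these 210, 1 was called, ENSRNOG00000011073, where 0.013% of all genes tested were called. With all 20 libraries, 79 of the 173 had a higher estimate (median -0.0057), and of 209 tested genes called lower 135 had a lower estimate and 74 a higher one (median -0.028), where 49.5% of all genes had a lower estimate. Tested directly, the effect in the cerebellum differed from the mean of the other tissues in 0 of 16597 genes (0%; 743 had an unadjusted p under 0.05), and in 0 of 16703 without the 2 libraries (0%), with 1941.

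The genotype effect was also compared between the sexes. No gene was called for males minus females, 0 of 15349 over all libraries (0%), with 765 at an unadjusted p under 0.05, and 0 of 15435 without the 2 libraries (0%), with 488. In females alone, which include neither of the 2 libraries, 0 of 15395 genes were called and 701 had an unadjusted p under 0.05. In males alone, 0 genes were called over 10 libraries and 1 over 8, a gene that was higher. ENSRNOG00000011073 had a log2 fold change of -0.36 in the 10 females and -0.29 in the 8 males, with adjusted p of 0.120 and 0.202 (edgeR).

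Genotype was a small part of the variation between libraries. With all 20 libraries the first principal component held 39.1% of the variance, of which genotype explained 4.90%. Without the 2 libraries the first principal component held 16.1% of the variance, of which sex explained 92.5%. Genotype explained 3.43, 4.53 and 21.6% of the first 3 components. The third held 8.58% of the variance, and the first part of the animal identifier explained 76.6% of it. The identifier part takes more values than genotype, which in itself raises the share it can explain, so these shares are not on the same footing. Over all 20 libraries the identifier parts are mostly shared between genotypes, but 1 of them is found in Q130 animals only. Another is shared through Q130 male 2 alone, so without the 2 libraries it is found in WT animals only. With the first part of the identifier as a block, 0 genes were called without the 2 libraries and 951 had an unadjusted p under 0.05. In that fit the libraries of parts found in 1 genotype only add nothing to the genotype estimate. What the identifier part stands for is not given in the sources used here, and its share in the estimates was not tested beyond this fit.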

How the data were processed

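Per the labels' protocols, flash-frozen tissue gave total RNA (Qiagen kit, Bioanalyzer check) and Illumina libraries of enriched RNA fractions. Aligner, counter and build were not given in the sources used here. Expected counts were deposited for 32883 genes; they are not all whole and were rounded; 12 columns written with dots, of striatal animals with 2 columns each, were not used. No label says which of the 2 is the repeat of batch 2; the dotted one was taken as such from the names, and the 2-month striatal calls rest on that. A deposited table named FPKM has the same total in every column, that of TPM values, and was read as such. It served for effective length (median ratio of count to TPM) and 1 alternative. Deposited transcript counts were tested alike.

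Groups came from titles. Genes kept by filterByExpr were tested in edgeR 4.0.16 (R 4.3.3; TMM, robust quasi-likelihood F test, sex as covariate), adjusted over all genes tested. Log2 CPM used a prior count of 2 and genes averaging at least 10 counts. Limma 3.58.1 and DESeq2 1.42.0 gave alternatives. Scripts were tested on simulated data. The closest of 90 pairs of libraries within groups differed by 3.22 times counting noise, so each counted once.

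The members and lists were chosen with earlier results of these data known. Symbols were needed for the gene lists, the naming rule and the check of the targeted gene, which were not run. By the rule's fallback, 2 identifiers per direction are given: the called ones and, of the 10 smallest p per direction at 1 CPM or more without the 2 libraries, those of largest change. No sequence could be matched.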

Additional observations from a re-analysis of the deposited data

Results flagged for a closer look

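In 24 sets of per-library values, 2 had an extreme library by Dixon's criterion, and chance gives about 1 in 20. ENSRNOG00000011073 was at 81.46 CPM in Q130 male 2, a gap of 0.78 of the range of the 10 Q130 libraries. The share of counts in the 10 most counted genes was 14.66% in Q130 male 1, a gap of 0.53 of that range. Both belong to the libraries that stood apart by correlation. With these 2 libraries left out, no such value was found in the 8 others, and none in the WT libraries. The correlation that kept the 8 was among the values examined, so this says little about them. Extreme values in 2 libraries of a group can also hide each other from this criterion. ENSRNOG00000001141, at 4.566 and 2.324 CPM in Q130 males 1 and 2, was not flagged.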

How the results depend on the processing

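Over all 20 libraries the count of called genes was 0 to 1 when single libraries were left out, the 1 without Q130 male replicate 2. It was 1 with library quality weights in limma-voom and 1 with the length offset, and 0 in the other alternatives. Without the 2 libraries the count of 2 was 1 to 2 when single libraries were left out, 1 with limma-voom, 1 with quality weights, 1 in males only, and 0 in females only, in 1 fit over all cerebellar libraries, with the identifier part as a block and in limma on log2 TPM. Females only and males only use fewer samples. With the identifier part as a block, libraries whose part is found in 1 genotype only add nothing to the genotype estimate, so that fit also compares fewer libraries. For the other settings the cause was not tested. The log2 fold change of ENSRNOG00000001141 over all libraries was reversed with limma-voom (-0.0059), with the identifier part as a block (-0.072), in males only (-0.10) and in limma on log2 TPM (-0.037), and that of ENSRNOG00000059938 in males only (-0.0073). Replicate numbers do not pair the animals: 3 of 10 same-numbered pairs had correlated deviations over 0.1 (range -0.15 to 0.26). With a replicate block the counts were 0 over all libraries and 2 without the 2, with 215 and 1025 genes at an unadjusted p under 0.05. The filter on low counts changed no count of called genes but moved those at an unadjusted p under 0.05 over all libraries from 244 to 537 with no filter, since 21809 genes were then tested. That number was also 838 in 1 fit over all cerebellar libraries, 1245 with quality weights, 701 in females only and 390 in males only. The 3 differences between ages, tissues and sexes gave 0 called genes in every alternative run. The alternatives planned for the targeted gene were not run.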
